A study of Homo sapiens with 6 samples.

Results

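The ATP-binding cassette (ABC) transporters measured here were the 43 genes of 38843 in the deposited table whose symbol is ABC, a subfamily letter from A to G and a number, together with CFTR (formally ABCC7). ABCA1 and ABCG1, which are targets of the oxysterol receptor LXR, and pseudogenes were left out. Messenger RNA was sequenced from PC-3, an established androgen-independent line from a human prostate cancer metastasis and the one line of the study. The 3 control libraries and the 3 libraries from cells given 5 µM cepharanthine hydrochloride, a plant bisbenzylisoquinoline alkaloid, were all taken on day 3, from cells labelled WT in DMEM with 10% fetal bovine serum. No vehicle is named for the control in the labels. Separate cultures are not stated either, and p-values then reflect only how far these libraries spread, which may be technical.

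ABC proteins bind ATP with a pair of conserved cassettes and most of them use it to move a substrate across a membrane. Subfamilies A and G move mainly lipids, B holds the multidrug pump P-glycoprotein and several mitochondrial half-transporters, C holds the multidrug resistance proteins that export organic anions and drug conjugates, and D serves peroxisomes and lysosomes. Subfamilies E and F have cassettes but no membrane span and act on ribosomes. Cepharanthine has been studied for years as an inhibitor of P-glycoprotein and as an agent against multidrug resistance. The question for this family was which of its transcripts differ between treated and control cells.

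Depth ranged from 52774506 to 59241954 counts in control and from 53017816 to 68241156 in treated libraries, with no difference beyond the spread (two-sided exact permutation test, p = 0.6; no p under 0.1 is possible here). At this depth 3 counts, the floor used for a gene without counts, correspond to 0.0440 to 0.0568 CPM (each count scaled to a common library total), and this floor covers counting error only. The summed level of the epithelial and mesenchymal markers KRT8, KRT18, EPCAM and VIM was 1091 to 1166 CPM in control and 1628 to 1783 CPM in treated libraries. VIM made up most of that difference, with 627 to 717 CPM in control and 1104 to 1278 CPM in treated libraries, while KRT18 overlapped between groups and EPCAM was at 50.7 to 57.0 and 41.5 to 44.3 CPM. KRT8 was also higher, with 207 to 236 CPM in control and 272 to 286 CPM in treated libraries. Sums of markers of other cell types were 2.94 to 3.52 and 1.88 to 2.89 CPM for 4 immune genes, 41.9 to 48.5 and 19.6 to 25.1 for 3 endothelial genes, 81.4 to 98.2 and 55.4 to 65.1 for 4 fibroblast genes, and 1.40 to 2.19 and 2.02 to 3.47 for 3 neuroendocrine genes. PECAM1 and COL1A1 made up nearly all of the endothelial and fibroblast sums, while VWF, CDH5, COL1A2 and DCN stayed below 1 CPM in every library. LUM was at 0.574 to 1.69 CPM in control and 0.849 to 1.69 CPM in treated libraries. The part of these genes in the results was not tested. Mitochondrially encoded genes took 8.75% to 12.2% of the counts in control and 4.86% to 6.61% in treated libraries.

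More ABC transporters fell than rose under cepharanthine, with the largest called falls in the organic anion exporter ABCC3 and the lipid transporters ABCA8 and ABCA3. Unlike the other 2, ABCA8 was not called under every alternative. Of the 43 members 35 had enough counts to be tested, and of these 12 fell and 2 rose, while 21 did not pass. The rises include ABCA6, which met the count filter only through the treated libraries. A call means a Benjamini-Hochberg adjusted p under 0.05 in edgeR's quasi-likelihood test over 21965 genes. Called in either direction were 40.0% of tested members and 27.9% of all genes tested. The share of tested members called lower was 34.3%, against 13.2% of all genes tested, and the share called higher was 5.71%, against 14.7% of all genes tested. The median log2 fold change of the 35 members was -0.34, against -0.02 over all genes tested. The groups did not overlap in CPM for 17 of the 35, and for 43.2% of all genes tested. In bulk RNA a lower level may mean fewer cells that hold a transcript or less of it per cell, and these cannot be told apart.

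**Figure D1:**
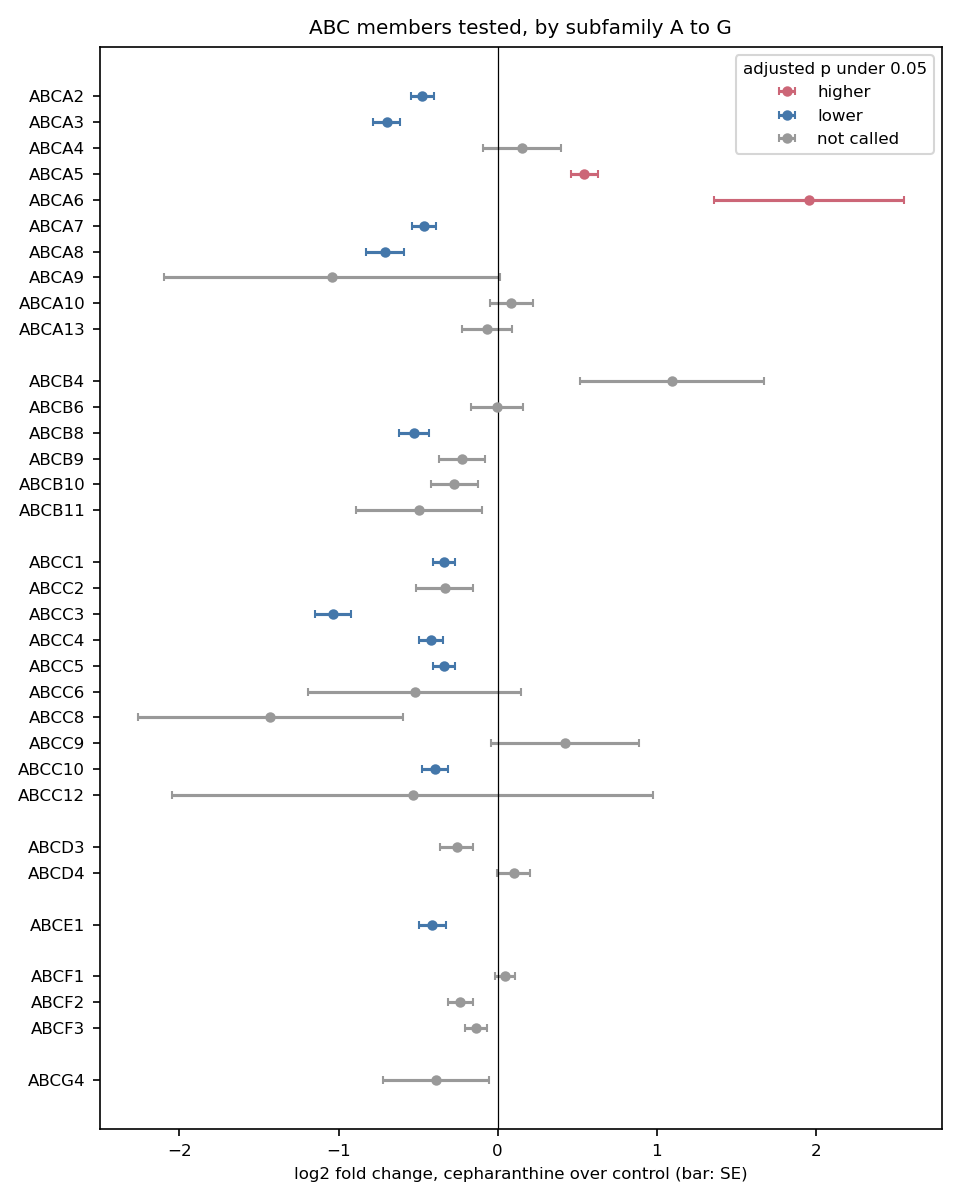
Log2 fold change of cepharanthine over control, with its SE as bar, for 33 ABC members tested, ordered by subfamily A to G. Blue points are 11 called lower, red points the 2 called higher, and grey points 20 that did not pass. The point farthest to the left among those called is ABCC3 at -1.04.

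Levels per gene length differed widely between members. In FPKM (reads scaled for gene length and library depth, as deposited), ABCC3 stood first in control cells with 72.4 ± 4.77 (SD, n = 3 per group here and below). ABCF1 followed with 16.5 ± 0.454, and then ABCF3 with 13.2 ± 0.849, ABCE1 with 12.8 ± 1.59, ABCC1 with 12.4 ± 0.213 and ABCF2 with 12.2 ± 1.24. Among these last 4, neighbours in the order did not differ beyond their spread. ABCC3 alone held 31.9% ± 1.66 of the summed FPKM of the 43 members in control libraries and 21.5% ± 2.37 in treated libraries.

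A mean FPKM of 1 or more over the 6 libraries was reached by 23 members, and all 12 called lower were among them. Beside these 12, 1 of the 23 rose and 10 did not pass. Among all genes tested with such a mean FPKM, 17.4% were called lower, 22.1% higher and 39.6% in either direction, a background looked up after the members' values were seen. Of the 20 members with a mean FPKM under 1, 1 rose, 11 did not pass and 8 had too few counts to be tested. These 8 were ABCA12, ABCB1, ABCB5, ABCC11, ABCD2, ABCG2, ABCG8 and CFTR, and none of them exceeded 19 counts in any library.

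**Figure D2:**
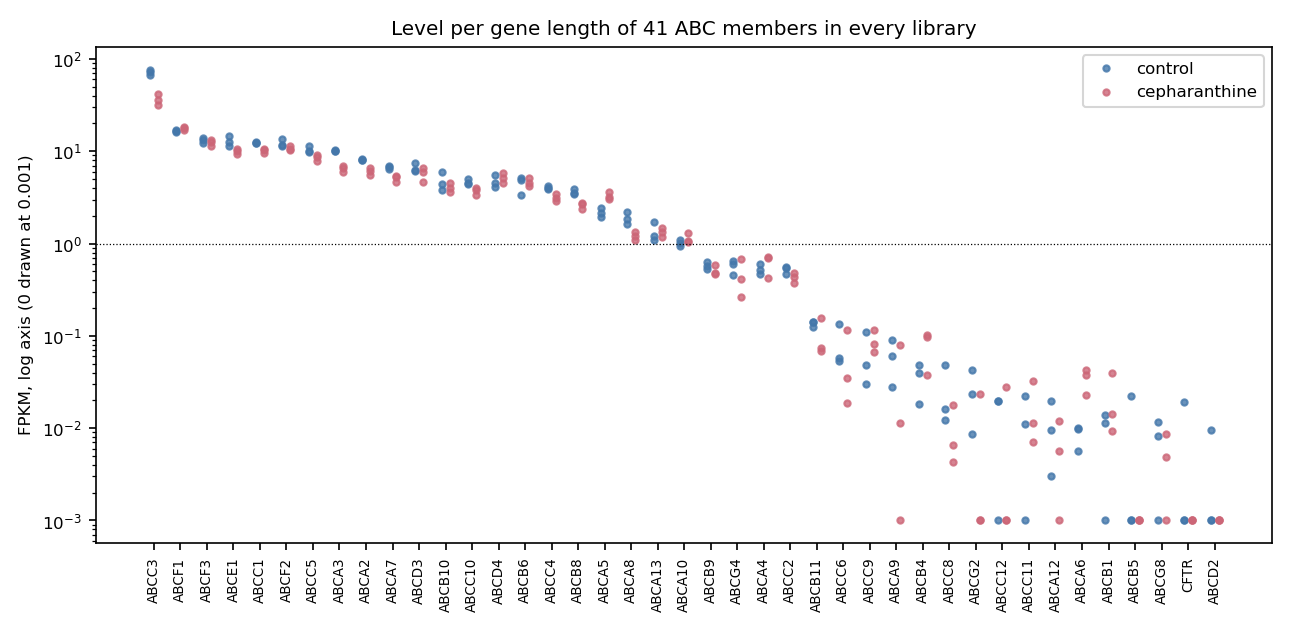
FPKM of 41 ABC members in every library on a log axis, with control libraries in blue and cepharanthine libraries in red, ordered by the control mean. Values of 0 are drawn at 0.001 and the dotted line marks an FPKM of 1. ABCC3 lies above all other members in both groups, and the members to the right of ABCA10 have control means below 1.

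Most drug exporter transcripts in these cells came from the multidrug resistance proteins of subfamily C, and 4 of these fell. Of the 8 exporters 6 were tested, 4 fell and 0 rose in edgeR, where 13.2% of all genes tested fell. Rises also numbered 0 at an unadjusted p under 0.05 and 0 in DESeq2. Of all genes tested with a mean FPKM of 1 or more, 17.4% fell. The summed level of the 8 was 1084 ± 54.7 CPM in control and 643 ± 58.2 CPM in treated libraries. ABCC3 gave 73.3% ± 1.69 of this sum in control and 62.9% ± 3.84 in treated libraries. Without ABCC3 the sum was 288 ± 9.11 CPM against 237 ± 6.82 CPM.

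ABCC3 (MRP3, ENSG00000108846, chr17:50634777-50692253 in GRCh38), which exports glucuronide conjugates and bile salts across the basolateral membrane, had the largest fall in the family among those called. It stood at 740.0, 792 and 854 CPM in control and at 460.3, 416 and 342 CPM in treated cells. The highest treated library lay well below the lowest control library. The mean went from 796 ± 57.2 to 406 ± 59.8 CPM, a log2 fold change of -1.04 ± 0.11 (SE; edgeR adjusted p = 0.00016).

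ABCC1 (MRP1), the exporter of glutathione conjugates and of anthracyclines, was at 109.6, 105 and 108 CPM in control and 91.7, 88.1 and 87.5 CPM in treated libraries. Replicates lay close together and the groups did not overlap, so that a change of -0.34 ± 0.07 passed the test (edgeR adjusted p = 0.0061). ABCC5 (MRP5), which exports cyclic nucleotides and nucleotide analogues, was at 132, 147 and 128 CPM in control and 113, 106 and 117 CPM in treated libraries. The gap between the groups was narrow, and the log2 fold change was -0.34 ± 0.07 (edgeR adjusted p = 0.0063). ABCC4 (MRP4), an exporter of cyclic nucleotides, prostaglandins and urate, was at 39.7, 40.5 and 39.1 CPM in control and 30.3, 30.0 and 33.1 CPM in treated libraries. All treated values lay below all control values, with a log2 fold change of -0.42 ± 0.08 (edgeR adjusted p = 0.0032).

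The other exporters were scarce. ABCC2 (MRP2), the canalicular exporter of conjugated bilirubin in liver, was at 4.26, 4.79 and 5.06 CPM in control and 3.93, 3.55 and 4.25 CPM in treated libraries. The groups were barely apart, and -0.33 ± 0.18 did not pass (edgeR adjusted p = 0.20). ABCC6, whose loss causes pseudoxanthoma elasticum, was at 0.542, 1.16 and 0.512 CPM in control and 0.311, 1.11 and 0.191 CPM in treated libraries. The groups overlapped (-0.52 ± 0.67, edgeR adjusted p = 0.62), and near-identical ABCC6 pseudogenes make its counts uncertain.

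The pumps best known from drug resistance, P-glycoprotein and BCRP, were close to the limit of these libraries. ABCB1, which encodes P-glycoprotein, had 6, 5 and 0 counts in control and 18, 4 and 8 in treated libraries. ABCG2, which encodes the breast cancer resistance protein BCRP, had 9, 4 and 15 counts in control and 0, 0 and 10 in treated libraries. Values of the groups overlapped for both genes, neither entered the test, and in the edgeR test without a filter neither was called. A difference in either was not detectable at this depth.

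The falls of ABCC1, ABCC4 and ABCC5 depended on how libraries were scaled, while that of ABCC3 passed under every alternative run. After rescaling FPKM to TPM, which gives each library the same total, the median of all genes moved to 0.26, and ABCC1, ABCC4 and ABCC5 had -0.09 ± 0.09, -0.17 ± 0.11 and -0.10 ± 0.12 (limma adjusted p = 0.41, 0.26 and 0.54). Relative to that median they were at -0.35, -0.43 and -0.36. When mitochondrially encoded genes were left out of the same rescaling, the 3 genes had -0.43, -0.49 and -0.43 (limma adjusted p = 0.0033, 0.0029 and 0.0040), a setting added after the values were seen. ABCC5 also missed the threshold in limma on log2(FPKM + 1) as deposited (-0.26 ± 0.09, adjusted p = 0.059). Without a filter on FPKM, ABCC4 and ABCC5 missed it in limma (adjusted p = 0.065 and 0.14).

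**Figure D3:**
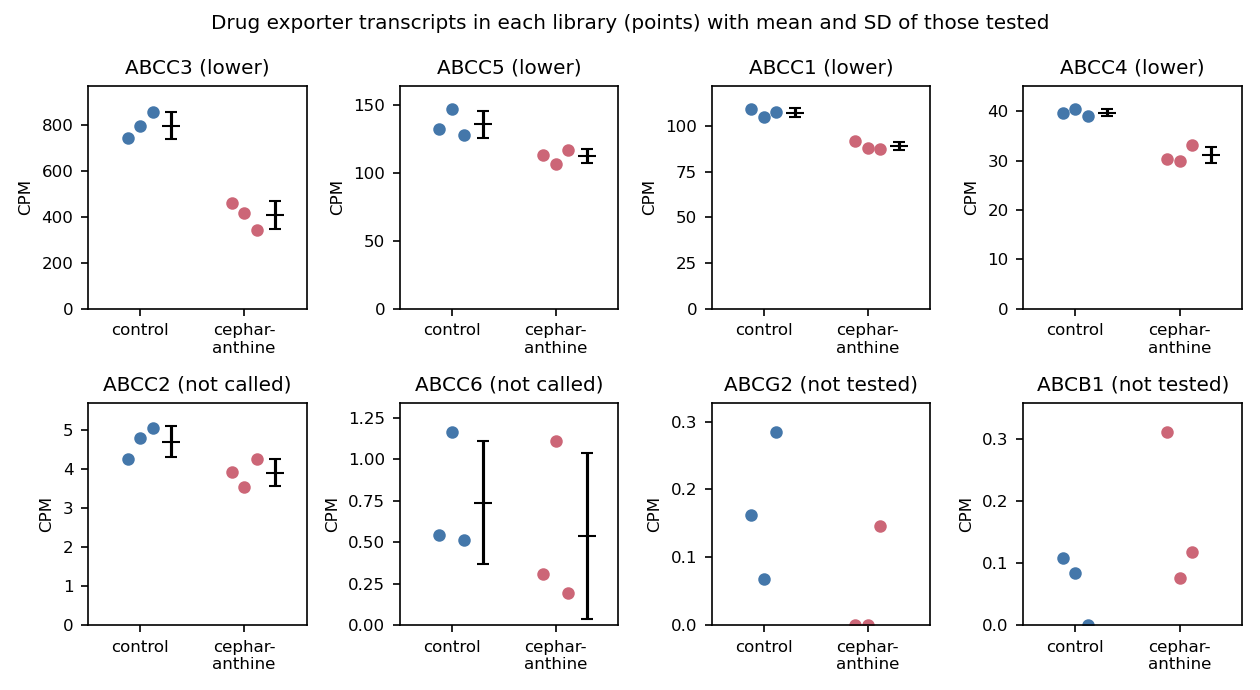
CPM of the 8 drug exporters in the 3 control (blue) and 3 cepharanthine (red) libraries, each on its own axis from 0, with the mean and SD as black bars for the 6 that were tested. ABCC3 dropped from 796 to 406 CPM, ABCC5, ABCC1 and ABCC4 show smaller gaps, and ABCC6, ABCG2 and ABCB1 overlap between groups.

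Outside the exporters, subfamily C showed 1 more fall. Of its 6 other members 4 were tested, 1 fell and 0 rose, where 13.2% of all genes tested fell and 14.7% rose. ABCC10 (MRP7), a pump of lipophilic drugs such as taxanes, went from 43.3 ± 2.51 to 34.5 ± 2.12 CPM (-0.39 ± 0.08, edgeR adjusted p = 0.0054), and its call ended after rescaling to TPM (-0.15, limma adjusted p = 0.33). That call also ended in limma without a filter on FPKM (adjusted p = 0.097). ABCC8 and ABCC9, the sulfonylurea receptors of potassium channels, stayed below 1.5 CPM in every library and did not pass, nor did ABCC12. CFTR, the chloride channel, had 13 counts in control replicate 2 and 0 in the other libraries. ABCC11, known for its part in earwax type, had 0 to 19 counts.

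Calls among the lipid transporters of subfamily A went in both directions. Of 11 members 10 were tested, 4 fell, 2 rose and 4 did not pass. That is 40.0% lower and 20.0% higher of those tested, beside 13.2% and 14.7% of all genes tested. The rises include ABCA6, whose call is described below. ABCA3, which loads phospholipid into lamellar bodies of the lung, was at 89.4, 89.3 and 92.7 CPM in control and 61.5, 61.5 and 52.2 CPM in treated libraries. The groups lay far apart relative to their spread (-0.70 ± 0.09, edgeR adjusted p = 3.3e-04), and this fall passed under every alternative that tested the gene, TPM included. ABCA2, a transporter of endosomes and lysosomes, went from 106.7 ± 0.510 to 80.5 ± 5.22 CPM (-0.47 ± 0.07, edgeR adjusted p = 0.0013). ABCA7, a phospholipid transporter known as a risk gene for Alzheimer disease, went from 73.6 ± 3.59 to 56.0 ± 2.22 CPM (-0.46 ± 0.08, edgeR adjusted p = 0.0017). Both missed the threshold after rescaling to TPM, with -0.23 (limma adjusted p = 0.092) and -0.21 (limma adjusted p = 0.12).

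ABCA5, a transporter of late endosomes and lysosomes, was the one clearly expressed member that rose. It was at 32.1, 35.7 and 29.9 CPM in control and 48.2, 47.5 and 53.2 CPM in treated libraries. The lowest treated library exceeded the highest control library (0.54 ± 0.08, edgeR adjusted p = 0.0012), and the gene was called under every alternative run, with log2 fold changes from 0.40 to 0.71. ABCA6, a relative with a poorly known substrate, had 9, 6 and 9 counts in control and 42, 36 and 26 in treated libraries. Only its treated libraries met the count filter, so it entered the test through the group where it was higher. The groups did not overlap (1.96 ± 0.60, edgeR adjusted p = 0.034), but at these low counts its call ended when any library other than cepharanthine replicate 3 was left out (edgeR adjusted p = 0.071 to 0.14), without a filter on counts (adjusted p = 0.057) and with the replicate number as a block (adjusted p = 0.094). ABCA8, linked to cholesterol efflux and HDL levels, was at 21.3, 28.3 and 24.3 CPM in control and 17.03, 14.8 and 15.4 CPM in treated libraries. All treated values lay below all control values (-0.71 ± 0.12, edgeR adjusted p = 0.0019), and the call ended after rescaling to TPM (-0.40, limma adjusted p = 0.087). It also ended in limma without a filter on FPKM (-0.39, adjusted p = 0.080).

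Both directions occurred among neighbouring genes. ABCA8, ABCA9, ABCA6, ABCA10 and ABCA5 lie head to tail on the minus strand of chromosome 17, from 68867289 to 69327182 in GRCh38, a stretch of 459.9 kb. By the gene spans as deposited, the gaps between genes are 5.32 to 19.1 kb. The RefSeq promoter of ABCA10 (chr17:69244799-69245098) lies inside the deposited span of ABCA5, so with that start the 2 genes overlap. ABCA5, transcribed first in that order, rose and ABCA8, the last, fell. ABCA10, beside ABCA5, had 0.09 ± 0.14 (edgeR adjusted p = 0.69), and ABCA9, beside ABCA8, had -1.04 ± 1.06 (edgeR adjusted p = 0.52) with 0 to 0.957 CPM per library. The remaining members of the subfamily were the retinoid transporter ABCA4 of photoreceptors (0.15 ± 0.24, edgeR adjusted p = 0.70), the very large ABCA13 (-0.07 ± 0.16, edgeR adjusted p = 0.80) and the skin lipid transporter ABCA12, which had 0 to 13 counts.

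**Figure D4:**
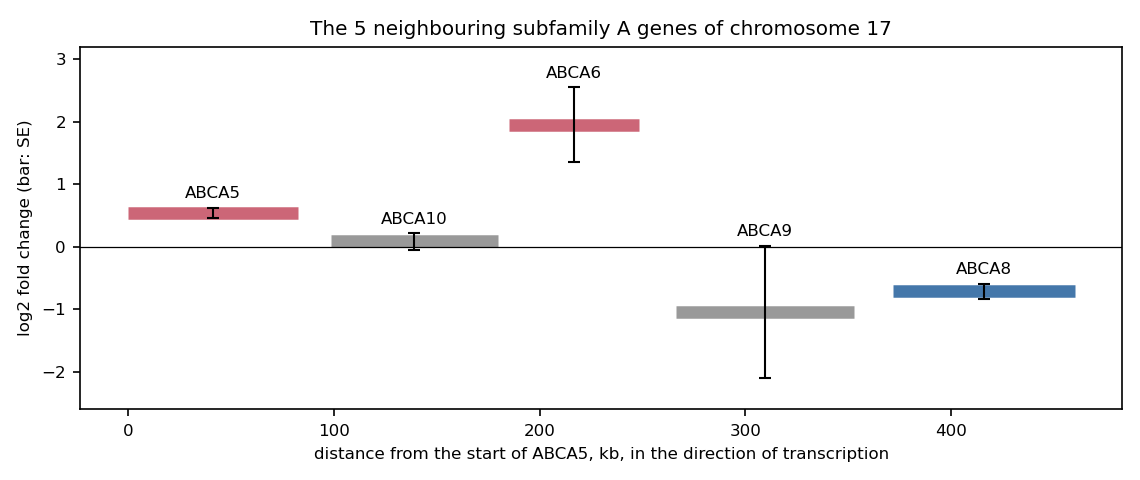
Map of the 5 neighbouring subfamily A genes of chromosome 17. The horizontal axis is the distance in kb from the start of ABCA5 in the direction of transcription, each bar spans a gene at the height of its log2 fold change, and black bars are the SE. ABCA5 at 0.54 and ABCA6 at 1.96 were called higher, ABCA8 at -0.71 lower, and ABCA10 and ABCA9 did not pass. ABCA6 met the count filter only through its treated libraries.

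The promoters of the called members with the largest changes are shown so that genes that rose and genes that fell can be compared. The RefSeq table (GRCh38.p14) gave a promoter, from 250 bases before to 50 after the start, for 34 of the 43 members and for 10 of the 14 called, and where a gene had several starts the first listed was used. Members without an entry include ABCA4, ABCA8, ABCB4, ABCB5, ABCC1, ABCC3 and ABCC8. The 2 risers and the 2 fallers with the largest changes and an entry were ABCA6 (chr17:69141846-69142145, minus strand), ABCA5 (chr17:69327084-69327383, minus strand), ABCA3 (chr16:2340679-2340978, minus strand) and ABCB8 (chr7:151028200-151028499, plus strand). ABCA6 met the count filter only through its treated libraries, and its call ended under 8 of its 13 alternatives, so ABCA5 is the one riser here with a stable call. Each is written 5′ to 3′ on the strand of the gene, and capitals mark the GC box, GGGCGG or CCGCCC.
ABCA6: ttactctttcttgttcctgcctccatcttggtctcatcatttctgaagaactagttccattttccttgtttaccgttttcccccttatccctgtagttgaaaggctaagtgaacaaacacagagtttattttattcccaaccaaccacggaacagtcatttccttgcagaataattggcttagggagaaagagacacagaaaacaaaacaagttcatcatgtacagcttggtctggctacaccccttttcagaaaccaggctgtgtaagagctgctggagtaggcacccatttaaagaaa
ABCA5: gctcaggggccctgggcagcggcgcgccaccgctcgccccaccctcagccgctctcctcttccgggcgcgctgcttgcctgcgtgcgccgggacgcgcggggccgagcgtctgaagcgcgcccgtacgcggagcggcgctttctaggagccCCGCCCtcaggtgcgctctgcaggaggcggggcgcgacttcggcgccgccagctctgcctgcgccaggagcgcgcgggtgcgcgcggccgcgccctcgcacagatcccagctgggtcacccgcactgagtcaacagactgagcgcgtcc
ABCA3: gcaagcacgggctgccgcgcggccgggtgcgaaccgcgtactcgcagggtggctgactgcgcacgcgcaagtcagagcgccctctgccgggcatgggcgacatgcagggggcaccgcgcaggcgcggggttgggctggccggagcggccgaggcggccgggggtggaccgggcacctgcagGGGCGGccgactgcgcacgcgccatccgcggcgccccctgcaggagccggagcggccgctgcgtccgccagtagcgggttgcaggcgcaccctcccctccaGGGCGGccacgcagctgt
ABCB8: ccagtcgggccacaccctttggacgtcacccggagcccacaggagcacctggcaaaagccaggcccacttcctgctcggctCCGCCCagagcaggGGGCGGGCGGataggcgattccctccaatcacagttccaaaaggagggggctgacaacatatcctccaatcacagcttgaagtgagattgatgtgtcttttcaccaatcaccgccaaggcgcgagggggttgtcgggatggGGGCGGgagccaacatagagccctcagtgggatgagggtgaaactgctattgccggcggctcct
The ABCA6 promoter holds 41.7% G and C and no GC box, while its neighbour ABCA5 has 76.3% G and C and 1 box, ABCA3 has 78.0% and 2 boxes, and ABCB8 has 61.0% and 4 matches that partly overlap each other.

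Matches to 5 short motifs, searched on both strands, are given as descriptions of these windows. Of the 2 promoters of members called higher, 1 is that of ABCA6, which met the count filter only through its treated libraries. A GC box stood in 5 of the 8 promoters of members called lower and in 1 of the 2 of members called higher, beside 10 of 17 of members that did not pass and 44.6% of 27305 promoters in the table. GCGTG (or CACGC), the core bound by the aryl hydrocarbon receptor complex, stood in 6 of the 8 and 1 of the 2, beside 6 of the 17 and 36.3% of all promoters. The 8 promoters of members called lower held 59.7% (ABCE1) to 79.7% (ABCC4) G and C. The 17 of members that did not pass held 25.0% (ABCA10) to 77.3% (ABCB10), and these counts were not matched for that content. TGACNNNGC (or GCNNNGTCA), the core of the antioxidant response element, stood in the promoters of ABCA2, ABCA3 and ABCC4, which fell, and of ABCA5, which rose. It also stood in 3 of the 17 that did not pass and in 13.6% of all promoters. CACGTG, the E-box shared by MYC and the lysosomal factor TFEB, and TGATGNAA (or TTNCATCA), the element of CHOP and ATF4, stood in 0 of these 10. They stood in 3 and 2 of the 17 that did not pass, and in 7.43% and 3.67% of all promoters. GCGTG can share at most 1 end base with the E-box or the GC box.

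Subfamily B without ABCB1 held 8 members, of which 7 were tested, 1 fell and 0 rose. The share that fell, 14.3%, was close to the 13.2% of all genes tested, of which 14.7% rose. ABCB8, a half-transporter of the inner mitochondrial membrane, was at 37.8, 41.0 and 37.4 CPM in control and 29.7, 29.9 and 25.1 CPM in treated libraries. The groups were well separated (-0.52 ± 0.09, edgeR adjusted p = 0.0027), and the call ended after rescaling to TPM (-0.27, limma adjusted p = 0.10). ABCB10, a mitochondrial half-transporter needed for heme synthesis, did not pass, with -0.27 ± 0.15 (edgeR adjusted p = 0.20). ABCB6, a porphyrin transporter, had a log2 fold change of -0.0049 ± 0.16 (edgeR adjusted p = 0.99), but a gene listed as AC068946 shares 54.7% of its exonic bases on the same strand and had a mean of 35.9 CPM against 27.3 CPM of ABCB6, so its counts are uncertain. ABCB9, a lysosomal peptide transporter that shares 12.5% of its exonic bases with OGFOD2 on the other strand, had -0.22 ± 0.14 (edgeR adjusted p = 0.28). ABCB4, the phosphatidylcholine floppase of bile, was at 0.361, 0.456 and 0.171 CPM in control and 0.914, 0.962 and 0.337 CPM in treated libraries and did not pass (1.095 ± 0.58, edgeR adjusted p = 0.20). ABCB11, the bile salt export pump, stayed below 1.5 CPM.

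In subfamily D the members described here were not called. ABCD3, which imports branched-chain and bile acid intermediates, had -0.26 ± 0.10 (edgeR adjusted p = 0.088). ABCD4, which exports cobalamin from lysosomes, had 0.10 ± 0.10 (edgeR adjusted p = 0.52). ABCD2 had 4 counts in control replicate 1 and 0 elsewhere.

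Among the soluble members, 1 of 4 fell, where 13.2% of all genes tested fell. ABCE1, which splits ribosomes after termination, was at 80.9, 102 and 92.1 CPM in control and 75.0, 70.4 and 71.1 CPM in treated libraries. The groups did not overlap (-0.41 ± 0.08, edgeR adjusted p = 0.0054), the call ended after rescaling to TPM (-0.16, limma adjusted p = 0.32), and 7.49% of its exonic bases lie opposite exons of ANAPC10 and 4.41% opposite those of OTUD4. The call of ABCE1 also ended in limma without a filter on FPKM (adjusted p = 0.11). ABCF2 missed the threshold (-0.23 ± 0.08, edgeR adjusted p = 0.056) and passed in DESeq2 (adjusted p = 0.037), with 45.8% of its exonic bases shared with the readthrough gene ABCF2-H2BE1, which had a mean of 3.13 CPM. ABCF1, a factor of translation initiation, was at 85.3, 85.6 and 83.2 CPM in control and 91.5, 92.1 and 91.0 CPM in treated libraries, with 0.05 ± 0.07 (edgeR adjusted p = 0.65). Its groups did not overlap in CPM, while the fold change after TMM scaling did not pass. It passed as higher after rescaling to TPM (0.28, limma adjusted p = 0.037), just above that scaling's median of 0.26. ABCF3 had -0.14 ± 0.07 (edgeR adjusted p = 0.17). In subfamily G, the sterol transporter ABCG4 was the sole other member tested (-0.39 ± 0.33, edgeR adjusted p = 0.44), and ABCG8, a partner in intestinal sterol export, had 0 to 9 counts.

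**Figure D5:**
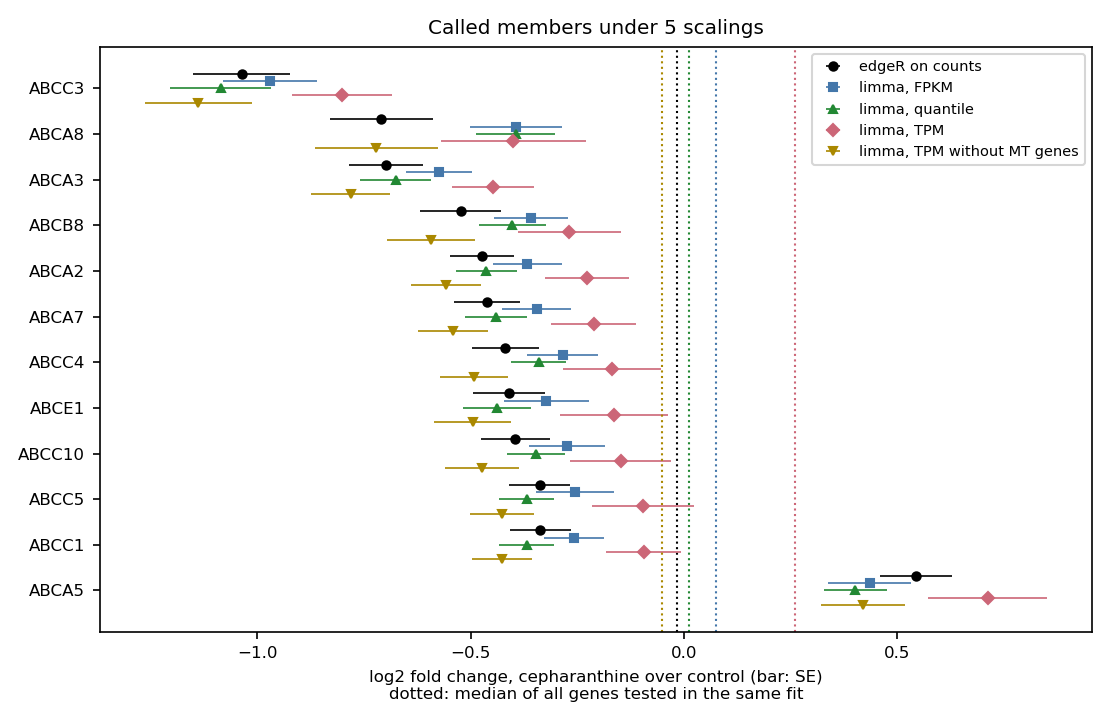
Log2 fold change with SE of 12 called members under edgeR on counts and, in limma, FPKM as deposited and 3 rescalings of it, with a dotted line of the same colour at the median of all genes tested in each fit. ABCA6 is left out because its mean FPKM was under 1. The TPM values lie to the right with their median of 0.26, and those of TPM without mitochondrially encoded genes lie to the left with a median of -0.05.

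Called members kept their sign under every scaling that gave them a value, while the number called differed between scalings. Of the 12 falls 11 passed in limma on FPKM as deposited, 12 after median-ratio scaling, 12 after quantile normalization, 2 after rescaling to TPM (ABCC3 and ABCA3) and 12 after that rescaling without mitochondrially encoded genes. In edgeR without mitochondrially encoded genes the 12 falls and 2 rises were the same genes. Of all genes called, 52.6% were higher in edgeR, 62.8% in limma on FPKM, 83.4% after rescaling to TPM and 41.7% after rescaling without mitochondrially encoded genes.

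TAP1 and TAP2, the ABC proteins that carry peptides to MHC class I and whose symbols fall outside the rule, were fitted beside the members. TAP1 rose from a mean of 56.8 ± 1.19 to 101.5 ± 7.12 CPM (0.77 ± 0.07, edgeR adjusted p = 6.9e-05). TAP2 had -0.02 ± 0.07 (edgeR adjusted p = 0.85). No test compared them with the members.

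Other carriers of drugs and nutrients were mixed. Of 27 genes listed, 22 were tested, 4 rose and 6 fell, with a median of -0.11, where 14.7% of all genes tested rose and 13.2% fell. SLCO4A1, an uptake carrier of organic anions and thyroid hormone, fell from 1924 ± 47.9 to 1137 ± 33.0 CPM (-0.82 ± 0.07, edgeR adjusted p = 3.3e-05). SLC19A1, the reduced folate carrier that also takes up methotrexate, fell by 0.95 ± 0.11 on the log2 scale, and SLC29A1, the equilibrative carrier of nucleosides and nucleoside drugs, fell by 0.75 ± 0.10 (edgeR adjusted p = 2.3e-04 and 4.4e-04). The 3 calls passed under every alternative that tested the gene.

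Genes that supply or use the glutathione exported by ABCC1 included more rises than falls. Of 22 listed, 20 were in the table, 18 were tested, 6 rose and 1 fell, with a median of 0.16, beside the same 14.7% and 13.2% of all genes tested. Among genes tested with a mean FPKM of 1 or more, 22.1% rose, 17.4% fell and 39.6% were called in either direction. GCLC, the catalytic subunit of the rate-limiting enzyme of glutathione synthesis, rose from 107.6 ± 3.74 to 171 ± 7.68 CPM (0.61 ± 0.07, edgeR adjusted p = 2.0e-04). The transferases MGST3 (0.61 ± 0.09) and GSTO1 (1.05 ± 0.16) rose, and the mitochondrial and peroxisomal GSTK1 fell (-0.55 ± 0.08), with edgeR adjusted p between 7.0e-04 and 0.0011. Among 9 regulators of exporter transcription, 8 were tested, 2 rose and 1 fell, and 27.9% of all genes tested were called in either direction. NFE2L2 (NRF2) rose from 84.4 ± 0.310 to 111 ± 6.72 CPM (0.33 ± 0.08, edgeR adjusted p = 0.0085). YBX1 rose by 0.42 ± 0.11 (edgeR adjusted p = 0.014, and 0.060 without cepharanthine replicate 2). HIF1A had -0.28 ± 0.09 (edgeR adjusted p = 0.048) and passed in 5 of its 18 alternatives, while the aryl hydrocarbon receptor AHR did not pass (0.18 ± 0.07, edgeR adjusted p = 0.091). NR1I2, the xenobiotic receptor PXR, had too few counts to be tested.

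Lists of partners of the organelle members are read against the 14.7% of all genes tested that rose and the 13.2% that fell. With a mean FPKM of 1 or more these shares were 22.1% and 17.4%. Of 12 peroxisomal genes that work with subfamily D, 0 rose and 1 fell, the thiolase ACAA1 (-0.34 ± 0.11, edgeR adjusted p = 0.041), which passed in 6 of its 18 alternatives. Rises among these 12 at an unadjusted p under 0.05 also numbered 0, and DESeq2 called 0 higher. Of 7 genes of the cobalamin route of ABCD4, 1 rose and 2 fell, with MMADHC at 0.75 ± 0.17 (edgeR adjusted p = 0.0088), MMACHC at -0.59 ± 0.18 (edgeR adjusted p = 0.035) and methionine synthase MTR at -0.31 ± 0.10 (edgeR adjusted p = 0.04990). MMACHC passed in 9 of 19 alternatives and MTR in 4 of 18. Of 18 genes of mitochondrial iron-sulfur and heme synthesis, 3 rose and 1 fell. The mitochondrial iron importer SLC25A37, which is known to bind ABCB10, fell (-0.46 ± 0.08, edgeR adjusted p = 0.0020), and the assembly factors LYRM4 and ISCA1 rose (0.64 ± 0.12 and 0.55 ± 0.13, edgeR adjusted p = 0.0036 and 0.011). The scaffold ISCU had 0.23 ± 0.07 (edgeR adjusted p = 0.042) and passed in 9 of its 19 alternatives. The call of SLC25A37 ended after rescaling to TPM (-0.22, limma adjusted p = 0.12), and that of ISCA1 without cepharanthine replicate 2 (adjusted p = 0.053).

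Partners of ABCE1 and the F members in translation were mixed. Of 11 genes 4 rose and 2 fell, with a median of 0.22, against 14.7% and 13.2% of all genes tested. With a mean FPKM of 1 or more these shares were 22.1% and 17.4%. PELO, which brings ABCE1 to stalled ribosomes, rose from 29.5 ± 4.57 to 49.1 ± 6.21 CPM (0.67 ± 0.12, edgeR adjusted p = 0.0026). The initiation factors EIF2S2 and EIF5 rose by 0.41 ± 0.07 and 0.43 ± 0.09 (edgeR adjusted p = 0.0014 and 0.0046). GCN1, the activator of the stress kinase GCN2, fell from 547 ± 36.9 to 323 ± 12.5 CPM (-0.83 ± 0.07, edgeR adjusted p = 4.4e-05). KCNJ8 and KCNJ11, the channel partners of ABCC8 and ABCC9, did not pass (edgeR adjusted p = 0.50 and 0.94).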

How the data were processed

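RNA of 3 control and 3 treated libraries was compared. Per the labels' protocols, TRIzol RNA and a SMARTER mRNA-Seq kit were used. The deposited table holds raw read counts and FPKM per gene, so named per the file headers. The submitters' processing notes name GRCm38, mm10 and hg38 without roles. For the aligner, counter, strand use and annotation, nothing is stated in these sources. Of the gene identifiers 96.8% were in GENCODE 29 and 99.8% of these overlapped the same gene, so coordinates are GRCh38. Control columns, named differently, were assigned from group and replicate number.

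Counts were filtered with filterByExpr, scaled by TMM and tested two-sided with edgeR 4.0.16 (R 4.3.3), adjusting p-values over 21965 genes by Benjamini and Hochberg. SE is the absolute log2 fold change over the square root of F. CPM uses the total of each count column. DESeq2 1.42.0 and limma 3.58.1 on log2(FPKM + 1) gave alternatives. The tests were also run on simulated counts with known changes, and the outcome is not given here. Those changes were larger than most ABC calls and came without a shift in mitochondrial share. Members, context lists and the naming rule were chosen with earlier results of these data known. Named were every member, with values per library for drug exporters and for calls of 0.5 or more on the log2 scale, and up to 4 genes per list by adjusted p. AC068946, OGFOD2, ANAPC10, OTUD4 and ABCF2-H2BE1 were named after their values were seen. A few genes, counted in the totals, are not reported here.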

Additional observations from a re-analysis of the deposited data

How the results depend on the processing

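The 12 falls among ABC members numbered 10 to 15 in edgeR variants, DESeq2 and most limma fits, no member was called in the opposite direction under any alternative, and leaving out any library gave 12. Falls became 6 in limma without a filter on FPKM and 2 after rescaling to TPM, drug exporters called became 2 and 1 there, and genes called became 3410 in the former. The 2 rises became 1 (ABCA5) in edgeR without a filter, with the replicate block, in limma on FPKM with either pseudocount or no filter, after median-ratio or quantile scaling and after TPM rescaling without mitochondrially encoded genes, and were 1 to 2 with a library left out. ABCA6 has no value in the filtered limma fits.

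Signs changed for members not called in the main test, and none was called where its sign differed. ABCB6 (-0.0049 in the main test) had 0.0085 without a filter, 0.0089 with the replicate block, 0.051, 0.064 and 0.051 in limma on FPKM + 1, on FPKM + 0.1 and unfiltered, 0.23 in TPM and 0.0093 with median-ratio scaling. In the same 3 limma fits ABCA13 had 0.0039, 0.013 and 0.0039, with 0.16 in TPM and 0.011 after quantile normalization. ABCF1 had -0.040 after quantile normalization and -0.050 in TPM without mitochondrially encoded genes, where ABCA10 had -0.011. In TPM ABCF2 and ABCF3 had 0.0048 and 0.10. With a library left out, ABCA4 ranged from -0.0049 to 0.38, ABCA13 from -0.17 to 0.16, ABCB6 from -0.17 to 0.10 and ABCC12, at 0 to 19 counts, from -5.94 to 0.018. The cause was not tested.

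Replicate numbers did not pair the libraries (correlations of deviations -0.07 to -0.0062 for equal numbers). With the replicate block 4838 genes, 12 falls, 1 rise and 4 exporters were called. Depth limits the 8 untested members, and counting without stated strand use limits those with antisense partners.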
